A study of Homo sapiens with 6 samples.

Results

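The proteasome genes measured here were all genes of the array table whose single annotated symbol begins with PSMA, PSMB, PSMC, PSMD, PSME, PSMF or PSMG followed by a digit, which gave 46 genes of 18132. Each was represented by its probe set with the highest mean over the 6 arrays, and 112 probe sets in all carried these symbols. The arrays, in 2 groups of 3, measured total RNA of the established cell line A549, which derives from a human lung adenocarcinoma. Control cells, titled sh_ctrl, received a scrambled sequence, and knockdown cells, titled sh_LINC00525, received a small interfering RNA against the long noncoding RNA LINC00525. The titles thus speak of short hairpins and the treatment text of small interfering RNA, and LINC00526 and LINC00527 stand in place of LINC00525 in the genotype labels of knockdown replicates 2 and 3. No label gives a dose, a time after transfection or a second targeting sequence. The labels do not state whether the replicates were separate cultures, so the p-values measure the spread between these arrays only, which may be technical.

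The proteasome is the protease that degrades ubiquitin-tagged proteins. Its barrel-shaped core particle has outer rings of alpha subunits (PSMA) and inner rings of beta subunits (PSMB). Of the beta subunits, PSMB5, PSMB6 and PSMB7 cut peptide bonds. A regulatory particle of ATPases (PSMC) and non-ATPase subunits (PSMD) caps the core, recognises ubiquitin chains and unfolds substrates. In cells exposed to interferon, PSMB8, PSMB9 and PSMB10 take the places of PSMB5, PSMB6 and PSMB7 in newly built particles, which are then called immunoproteasomes. PSME1 and PSME2 form an alternative cap, the PA28 activator, that opens the core without ATP. Both changes are known for shaping the peptides that cells display on MHC class I. These 5 genes are called the inducible genes here, and the remaining 41 the other members.

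LINC00525 was lower on the knockdown arrays, by 0.30 ± 0.075 on the log2 scale (-0.30, SE, limma adjusted p = 0.0372). Its single probe set, at means of 3.86 and 3.55, lay within the range of background control probe sets (2.27 to 4.60), so the size of the knockdown is poorly measured. CDKN1A, which encodes the p21 protein named in the study's title, was 1.47-fold higher (limma adjusted p = 0.00089). The array medians lay between 5.10 and 5.11 log2 units, and arrays of the same group correlated at 0.9983 to 0.9988 over all probe sets. Of the 18132 genes, 12.6% passed the threshold of an adjusted p under 0.05. All changes are differences of log2 signal, knockdown minus control, and are relative to the typical gene of an array.

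Of the 5 inducible genes 4 rose and PSMB10 did not pass the test. Among the other 41 members 0 rose and 6 fell (limma, with 0 higher and 15 lower at an unadjusted p under 0.05). Over all 18132 genes the same test called 5.77% as rises and 6.83% as falls, and 11.1% were higher and 15.5% lower at an unadjusted p under 0.05. The 4 rises were kept on leaving out any single array, while the falls then numbered 0 or 1. PSMB9, PSMB8, PSME1 and PSME2 were thus the only rises among the 46 genes under this test, by 1.60-fold, 1.46-fold, 1.29-fold and 1.23-fold. The median log2 change was 0.36 over the inducible genes and -0.07 over the other members, against -0.01 over all genes.

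PSMB8, the subunit that replaces PSMB5, stood at 7.92, 7.89 and 7.86 log2 units on the control arrays and at 8.43, 8.44 and 8.44 on the knockdown arrays. The knockdown arrays lay within 0.01 of each other and above every control array. The change was 0.55 ± 0.036 (SE, limma adjusted p = 0.000124). PSMB9, which replaces PSMB6, was at 7.81, 7.64 and 7.76 on control and at 8.44, 8.35 and 8.45 on knockdown arrays. Of the inducible genes it had the widest spread among its controls, and its groups did not overlap. Its change of 0.68 ± 0.055 (SE, limma adjusted p = 0.000346) was the largest of the 46.

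PSMB10, which replaces PSMB7, behaved differently from the pair. Its values were 8.34, 8.35 and 8.40 on control and 8.37, 8.36 and 8.45 on knockdown arrays. The groups overlapped, since control replicate 3 lay above knockdown replicates 1 and 2. The change was 0.03 ± 0.042 (SE, limma adjusted p = 0.714), with a 95% interval from -0.07 to 0.13. That interval holds no change as large as the lower bounds for PSMB8 (0.46) and PSMB9 (0.55).

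Both subunits of the PA28 cap rose. PSME1 was at 10.00, 9.94 and 9.88 on control and 10.31, 10.27 and 10.33 on knockdown arrays, a change of 0.36 ± 0.044 (SE, limma adjusted p = 0.00239). PSME2 was at 9.71, 9.65 and 9.77 on control and 10.03, 9.99 and 9.99 on knockdown arrays, a change of 0.29 ± 0.043 (SE, limma adjusted p = 0.00544). In each gene all knockdown arrays lay above all control arrays, as they did for 12.9% of all genes. In RNA from whole cultures, more expressing cells and more RNA per cell cannot be told apart.

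**Figure D1:**
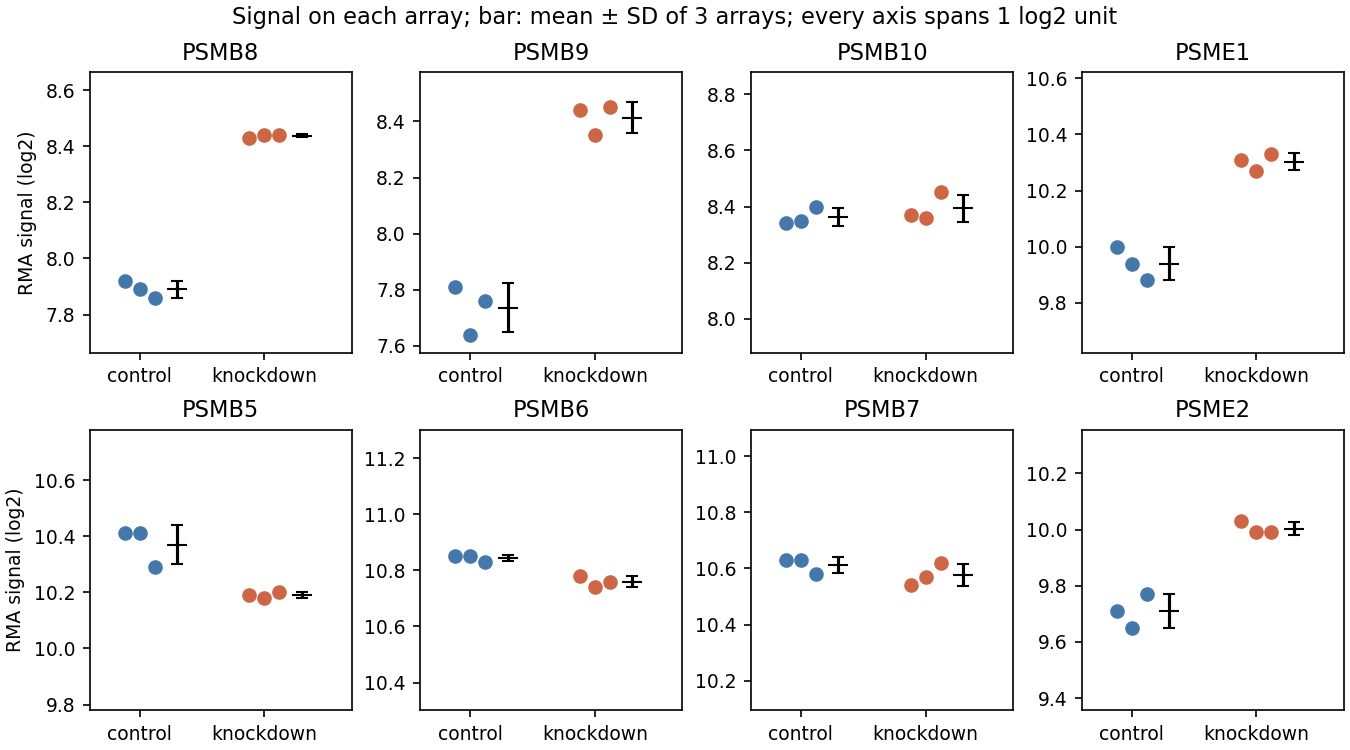
RMA signal (log2) on each control and knockdown array for the inducible genes PSMB8, PSMB9, PSMB10, PSME1 and PSME2 and the constitutive catalytic subunits PSMB5, PSMB6 and PSMB7, with points for arrays and bars for the mean ± SD of 3 arrays. Every axis spans 1 log2 unit. PSMB8, PSMB9, PSME1 and PSME2 move up without overlap, the PSMB10 groups overlap, and PSMB5 sits lower on every knockdown array.

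The catalytic subunits that exchange places were then compared within each array, as the change of the log2 ratio of the inducible subunit to its constitutive partner. Such a ratio cannot be moved by a scaling factor common to the array. The ratio of PSMB8 to PSMB5, set to a control mean of 0, was -0.01, -0.04 and 0.05 on control and 0.72, 0.74 and 0.72 on knockdown arrays, a 1.65-fold rise (log2 0.73 ± 0.027 SE). The ratio of PSMB9 to PSMB6 was 0.07, -0.10 and 0.04 on control and 0.77, 0.72 and 0.80 on knockdown arrays, a 1.69-fold rise (log2 0.76 ± 0.057 SE). Neither ratio overlapped between the groups. That of PSMB10 to PSMB7 changed by 0.07 ± 0.038 (SE) and overlapped in part of its range, with control replicate 3 at 0.07 and knockdown replicate 2 at 0.04. The exact 2-sided permutation test gave p = 0.1 for the first pair and for the second, the smallest that 3 arrays against 3 allow, and p = 0.2 for PSMB10 to PSMB7.

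PSMB10 also lagged the other inducible subunits directly. The ratio of PSMB8 to PSMB10 rose by 0.52 ± 0.045 and that of PSMB9 to PSMB10 by 0.65 ± 0.058 (SE, exact permutation p = 0.1 each, with no overlap). Adjusted by Benjamini-Hochberg over the 5 ratios compared, these p-values became 0.125, and 0.2 for PSMB10 to PSMB7. Averaged over the genes of each set, the inducible genes stood 0.47, 0.44 and 0.46 above the other members on knockdown replicates 1, 2 and 3, relative to the control mean. On the control arrays that difference was 0.02, -0.04 and 0.02.

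The genes were then read probe set by probe set. Of the 13 probe sets of the inducible genes 8 rose and 0 fell, where 4.64% of all 49372 probe sets rose and 5.25% fell. The second PSMB8 probe set gave 0.52 and the second PSMB9 probe set 0.58 (limma, p adjusted over all probe sets: 0.000323 and 0.00145). The third probe set of each gave 0.10 and 0.02 and did not pass. Both lay near background, at control values of 2.86 to 3.07 for PSMB8 and 2.95 to 3.05 for PSMB9. Background was read from the 17 Tag controls, artificial sequences without a human target, which ranged from 2.27 to 4.60 on control arrays, and 6 of them lay above the control mean of each of these probe sets.

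All 3 PSME1 probe sets rose, by 0.36, 0.32 and 0.32. PSME2 had a single probe set, whose suffix _s_at marks probes that can also bind other transcripts. For PSMB10 the probe set standing for the gene showed the smallest change of the 3. The others were at 0.09 (limma adjusted p = 0.211) and 0.16 (adjusted p = 0.0553), and in both all knockdown arrays lay above the control arrays. Neither passed, and both carry the suffix _x_at, which likewise marks probes that can bind other transcripts.

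**Figure D2:**
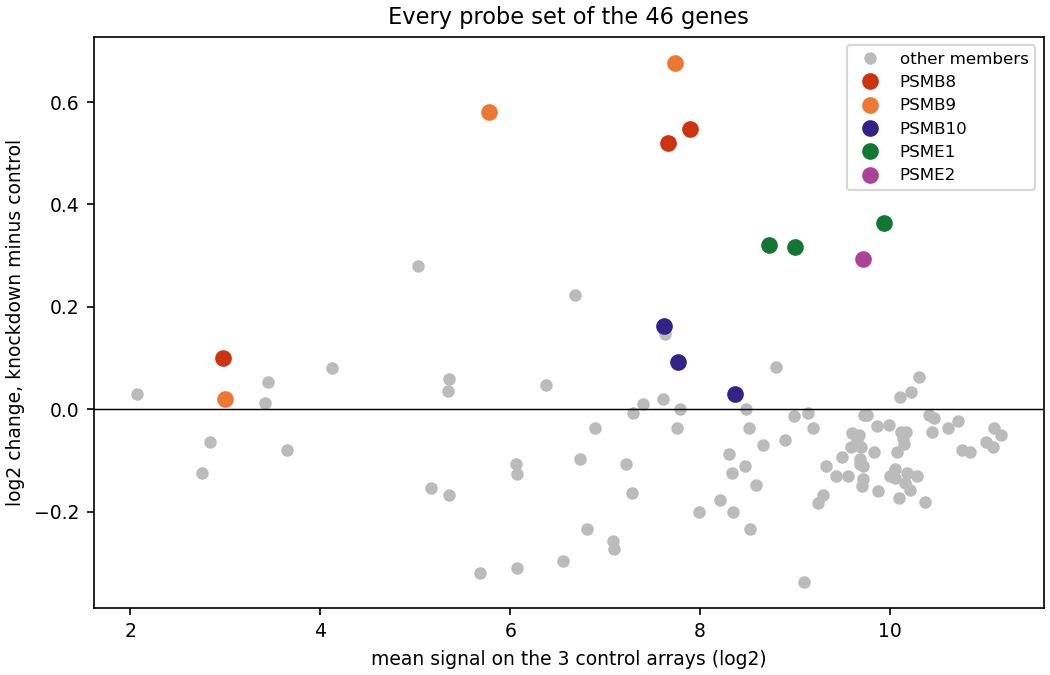
Log2 change against mean control signal (log2) for the 112 probe sets of the 46 genes, 1 point per probe set, with the inducible genes in colour and the other members in grey. The well-measured PSMB8 and PSMB9 probe sets lie between 0.52 and 0.68, their near-background ones at 0.10 and 0.02, and most grey points lie below 0.

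Of the 3 constitutive catalytic subunits, PSMB5 fell and PSMB6 and PSMB7 did not pass. PSMB5, which carries the chymotrypsin-like site, was at 10.41, 10.41 and 10.29 on control and 10.19, 10.18 and 10.20 on knockdown arrays, and fell by 0.18 ± 0.045 (SE, limma adjusted p = 0.0385). Every knockdown array lay below every control array, although control replicate 3 was the nearest to them. Dropping any single array other than control replicate 3 ended the call (limma adjusted p from 0.0827 to 0.128), as did dropping the _s_at and _x_at probe sets (adjusted p = 0.224). All 5 PSMB5 probe sets had changes below 0, from -0.18 to -0.07, and none passed when adjusted over all probe sets.

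PSMB6 was at 10.85, 10.85 and 10.83 on control and 10.78, 10.74 and 10.76 on knockdown arrays. Its groups did not overlap, and its change of -0.08 ± 0.035 did not pass (SE, limma adjusted p = 0.18). PSMB7 was at 10.63, 10.63 and 10.58 on control and 10.54, 10.57 and 10.62 on knockdown arrays, with overlap and a change of -0.04. The thymus-specific catalytic subunit PSMB11 had a control mean of 2.84, which the Tag controls span.

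On the probe sets standing for the genes, the rest of the core particle changed little. Of the 7 measured alpha ring genes 0 passed (limma, 1 at an unadjusted p under 0.05), with log2 changes from -0.12 to 0.06, and the lowest was PSMA8, a testis-specific subunit whose control mean of 2.75 lay at background. PSMA5 had the largest positive change of the ring, at 10.32, 10.30 and 10.30 on control and 10.36, 10.35 and 10.40 on knockdown arrays (0.06 ± 0.036 SE, limma adjusted p = 0.317, and -0.22 when scaled to hybridization controls). The non-catalytic beta subunits PSMB1, PSMB2, PSMB3 and PSMB4 were at -0.04, -0.07, -0.08 and -0.04, with 0 of 4 past the threshold (limma, 0 also at an unadjusted p under 0.05). Other probe sets moved further. The second PSMA1 probe set fell by 0.31 (limma, adjusted p = 0.0478 over all probe sets). The third PSMB2 probe set was at -0.30 without passing (adjusted p = 0.064).

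The regulatory particle lay on the low side on the deposited scale. The measured PSMC and PSMD genes include PSMD5, PSMD9 and PSMD10, which are chaperones of its assembly. All 17 had log2 changes below 0, between -0.17 and -0.01, with a median of -0.11, where 56.4% of all genes were below 0. Of these 17, 3 fell, where 6.83% of all genes did. In 11 of the 17 every knockdown array lay below every control array, as in 17.9% of all genes. At an unadjusted p under 0.05, 10 of the 17 were lower, against 15.5% of all genes. Their control means ran from 8.66 to 10.72, and genes of like signal were not compared. After cyclic loess PSMC4 and PSMD8 were at 0.023 and 0.0092. Under that setting 2 of the 46 genes fell, where 922 of all 18132 genes did.

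PSMD14, the deubiquitinase that removes ubiquitin chains from captured substrates, was at 10.07, 10.14 and 10.08 on control and 9.91, 9.92 and 9.94 on knockdown arrays. It fell by 0.17 ± 0.038 (SE, limma adjusted p = 0.0246). The ATPase PSMC6 was at 9.85, 9.88 and 9.89 on control and 9.74, 9.68 and 9.72 on knockdown arrays, and fell by 0.16 ± 0.037 (adjusted p = 0.0304). The scaffold subunit PSMD1 was at 10.20, 10.23 and 10.19 on control and 10.05, 10.03 and 10.07 on knockdown arrays, and fell by 0.16 ± 0.036 (adjusted p = 0.029). In all 3 the groups were separate. None of these calls survived the removal of a single array, whichever it was (limma adjusted p from 0.0537 to 0.102 over the 3 genes).

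PSMD12, a scaffold subunit of the lid of the particle, showed how much the choice of probe set matters. The probe set standing for the gene gave -0.11 (limma adjusted p = 0.129). Its other probe sets gave -0.34, -0.23 and -0.27, and all 3 passed over all probe sets (adjusted p = 0.00377, 0.0147 and 0.00566). On each of the 4 probe sets every knockdown array was below every control array. Over the 99 probe sets of the other members 15 fell, in 12 genes, and 2 rose, both in PSME4. Of all 49372 probe sets 5.25% fell and 4.64% rose. In PSMC2, PSMD2, PSMD3 and PSMF1 the probe set standing for the gene did not pass and 1 other fell. Those others fell by 0.32, 0.20, 0.18 and 0.18 (limma, p adjusted over all probe sets: 0.0355, 0.0492, 0.0438 and 0.042).

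Neither of the other measured activators of the core passed. PSME3, which forms the nuclear relative of the PA28 cap, was at 8.37, 8.30 and 8.33 on control and 8.23, 8.09 and 8.31 on knockdown arrays, so the groups overlapped (-0.12 ± 0.059 SE, limma adjusted p = 0.236). Its second probe set fell by 0.20 (adjusted p = 0.0339 over all probe sets). PSME4, the large single-chain activator PA200, was at 8.80, 8.81 and 8.79 on control and 8.85, 8.90 and 8.90 on knockdown arrays (0.08 ± 0.036 SE, limma adjusted p = 0.191, and -0.20 when scaled to hybridization controls). Of its 6 probe sets, those at 0.22 and 0.28 rose (limma, p adjusted over all probe sets: 0.0183 and 0.0322), and the one at -0.10 lay below 0 without passing. Without _s_at, _x_at and _a_at probe sets PSME4 was called a rise (0.22, limma adjusted p = 0.0344).

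Of the 4 assembly chaperones, which help build the core particle, PSMG1 was at 8.58, 8.59 and 8.60 on control and 8.44, 8.47 and 8.42 on knockdown arrays, and its change of -0.15 ± 0.036 passed (SE, limma adjusted p = 0.0355). The call ended with the removal of any single array (adjusted p from 0.0709 to 0.105). PSMG2, PSMG3 and PSMG4 were at -0.08, -0.01 and 0.02. PSMF1, a proteasome-binding protein, was at -0.04. The symbol rule also took in PSMC3IP and PSME3IP1, which bear the names of binding partners and are not proteasome subunits. PSMC3IP, a meiotic and homologous recombination factor, was at 6.80, 6.80 and 6.84 on control and 6.51, 6.63 and 6.60 on knockdown arrays. It had the largest fall of the 46 (-0.23 ± 0.044 SE, limma adjusted p = 0.0146), a call that ended without control replicate 2 (adjusted p = 0.0507) or control replicate 3 (adjusted p = 0.0561).

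**Figure D3:**
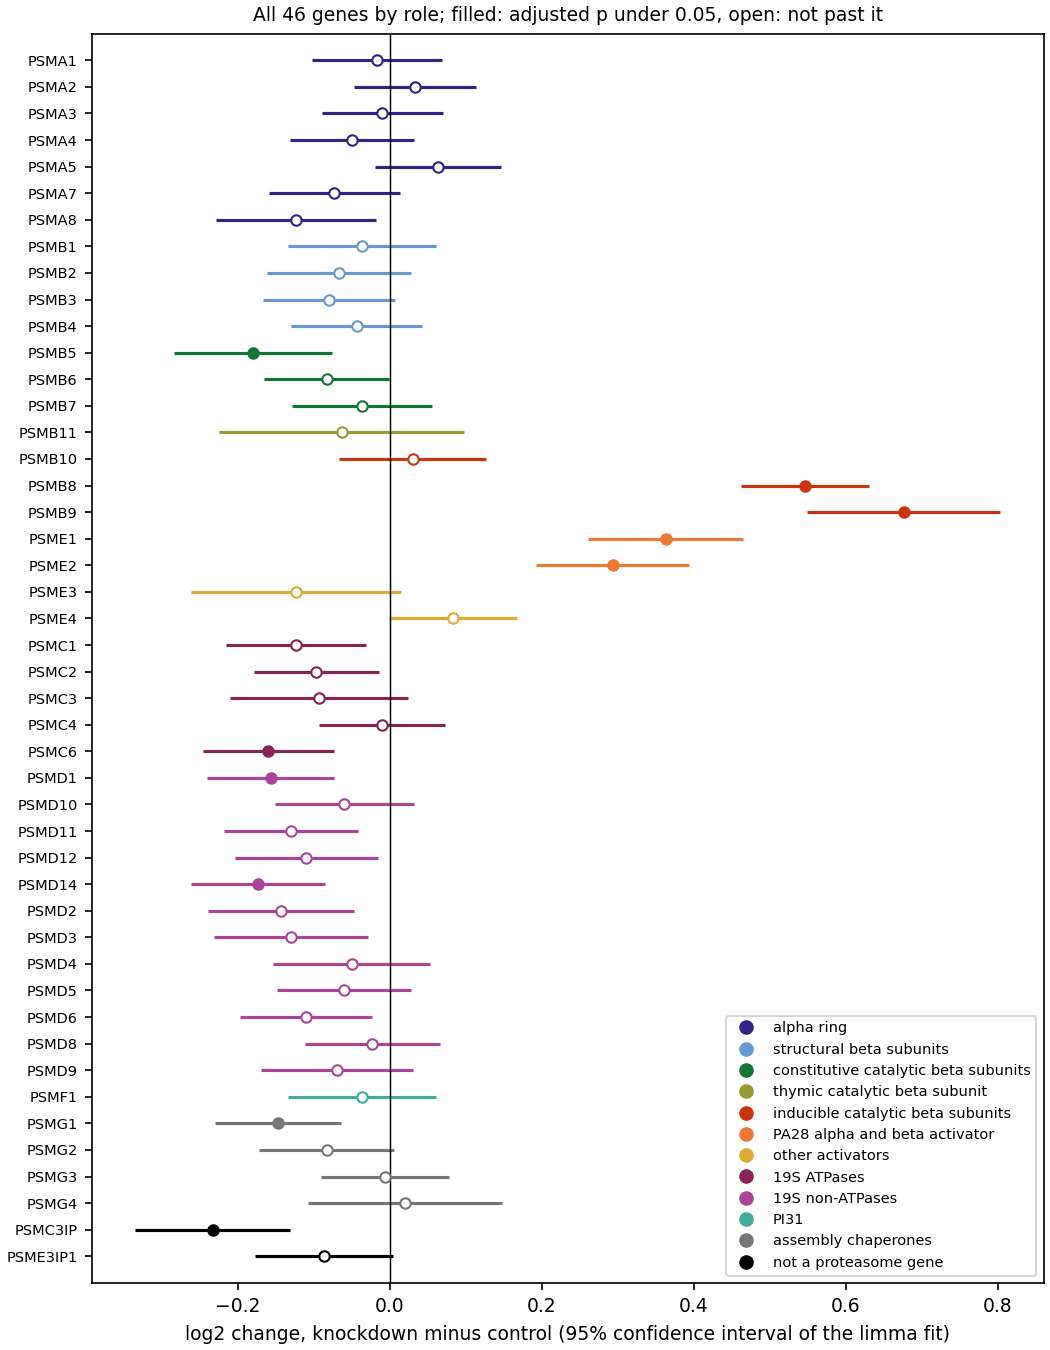
Log2 change (knockdown minus control) of the 46 genes ordered by role, with 95% confidence intervals of the limma fit. Filled points passed an adjusted p of 0.05. The 4 filled points to the right are PSMB8, PSMB9, PSME1 and PSME2, and the 6 filled points to the left lie between -0.23 and -0.15.

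Whether these genes rose or fell in absolute terms depends on the scale. Bacterial hybridization controls were 0.28 log2 units higher on the knockdown arrays and poly-A controls 0.13 higher, and scaling to them shifted the median of all genes to -0.29 and -0.14. PSMB8 and PSMB9 still rose when scaled to the hybridization controls (0.27 and 0.40, limma adjusted p = 0.0089 and 0.00021), while PSME1 and PSME2 were at 0.08 and 0.01 and their calls were lost (adjusted p = 0.407 and 0.905). PSMB10 turned to -0.25 (adjusted p = 0.0125) and, scaled to the poly-A controls, to -0.10 (adjusted p = 0.167). Scaled to the hybridization controls 2 of the 46 rose and 42 fell, where 1.28% of all genes rose and 83.2% fell. Scaled to the poly-A controls 4 rose and 33 fell, where 2.88% of all genes rose and 38.7% fell. The median of the other members was -0.35 and -0.20, and -0.05 after cyclic loess.

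**Figure D4:**
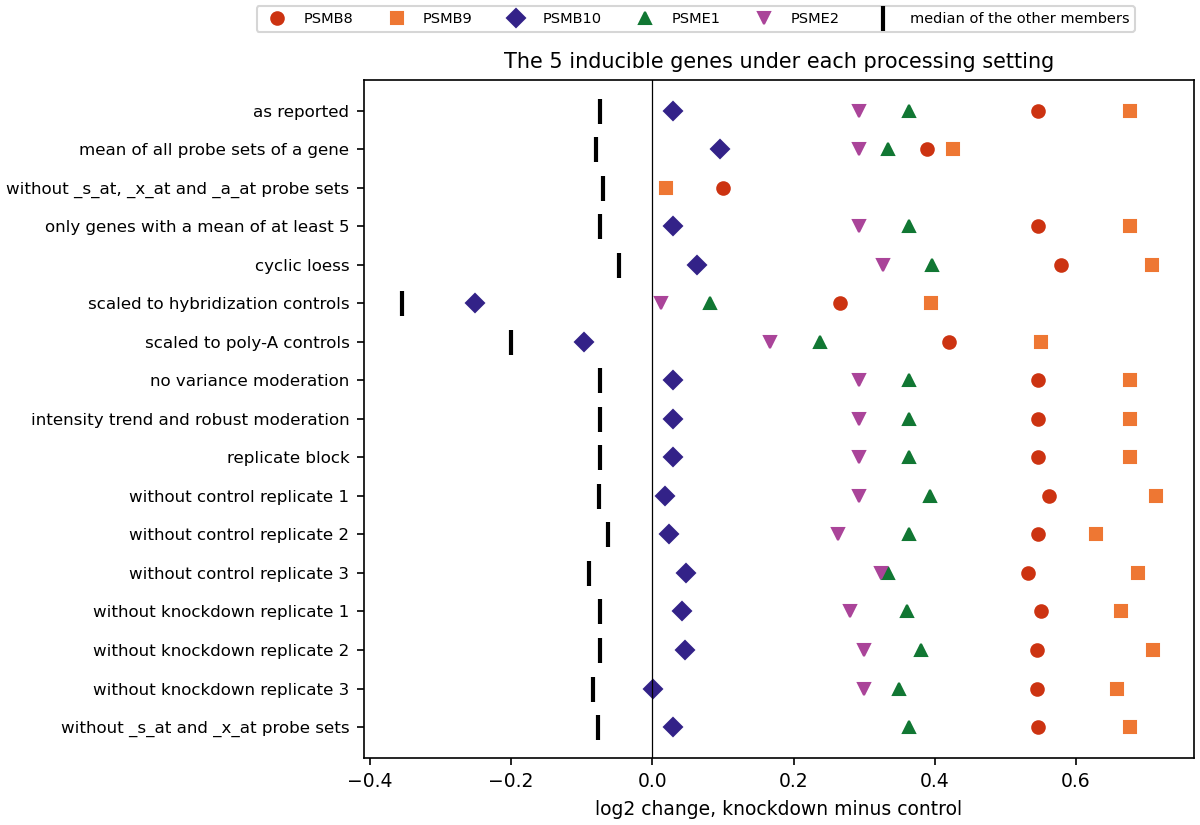
Log2 change of the 5 inducible genes (symbols) and the median of the other members (black bars) under each processing setting, listed on the vertical axis. In every setting that measured all 5 genes the order PSMB9, PSMB8, PSME1, PSME2, PSMB10 is kept and the black bar lies to their left. Scaling, moderation, the replicate block and the signal filter could not change the order of the 5 genes.

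The promoters of the genes were read to see which carry letters of the interferon-stimulated response element (ISRE), the site bound by interferon regulatory factors. RefSeq promoter windows (GRCh38.p14, from 250 bases before to 50 after each transcript start) were matched by symbol for 40 of the 46 genes. The ISRE was searched on both strands as GAAA, any 2 bases, GAAA. It was found in 4 of the 5 inducible genes and in 3 of the 35 other members matched, against 4.38% of all 27305 genes in the table. The 30 bases around each match are shown here 5′ to 3′ on the strand of the gene, because they set PSMB10 beside the genes that rose. Capitals mark the ISRE match, on the reverse strand in PSMB8 and PSME1.
PSMB8 (chr6:32844032-32844061, minus strand): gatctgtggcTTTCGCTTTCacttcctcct
PSMB10 (chr16:67936852-67936881, minus strand): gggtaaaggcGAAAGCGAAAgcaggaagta
PSME1 (chr14:24136189-24136218, plus strand): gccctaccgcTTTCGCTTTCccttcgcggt
PSME2 (chr14:24146619-24146648, minus strand): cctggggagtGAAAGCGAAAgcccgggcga
PSMG4 (chr6:3258904-3258933, plus strand): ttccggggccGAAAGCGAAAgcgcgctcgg
PSMB4 (chr1:151399495-151399524, plus strand): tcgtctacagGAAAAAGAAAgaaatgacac
PSMA4 (chr15:78540155-78540184, plus strand): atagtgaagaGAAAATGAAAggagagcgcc

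The inducible genes with a match share the same inner letters, GAAAGCGAAA, or TTTCGCTTTC on the other strand. Those letters, counted after they had been seen, were in the windows of 34 of 27305 genes (0.125%), and 5 of these were PSMB8, PSMB10, PSME1, PSME2 and PSMG4. PSMB10 and PSMG4 hold them and did not pass the test. PSMG4 was at 7.62, 7.50 and 7.69 on control and 7.66, 7.58 and 7.63 on knockdown arrays (0.02 ± 0.055 SE, limma adjusted p = 0.859). Of its 6 probe sets 1 fell, by 0.16 (limma, adjusted p = 0.0412 over all probe sets), and 0 rose. In PSMB4 and PSMA4 the inner letters differ, and neither gene passed (-0.04 and -0.05). Genes with the match thus include both genes that rose and genes that did not pass.

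PSMB9, the gene with the largest rise, had no ISRE match in its window. The 250 bases before its start (chr6:32853942-32854191, plus strand) are shown for that reason, and hold no capitals since neither the ISRE nor the GAS letters occur there.
PSMB9: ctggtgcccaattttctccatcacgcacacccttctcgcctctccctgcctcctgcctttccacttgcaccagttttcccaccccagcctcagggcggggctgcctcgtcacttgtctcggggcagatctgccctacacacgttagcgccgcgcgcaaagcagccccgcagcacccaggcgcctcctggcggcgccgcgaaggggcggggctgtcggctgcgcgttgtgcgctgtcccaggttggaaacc
The same 10 letters were found outside this window, from 369 to 360 bases before the PSMB9 start, in the window of TAP1. The absence of a match says only that the letters are not in these bases.

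The GAS element, bound by STAT dimers, was searched as TTCNNNGAA, which reads the same on both strands. It was in 1 of the 5 inducible genes, PSMB8, and in 7 of the 35 other members, against 9.38% of all genes. PSMB5, the constitutive partner that fell, held it at bases -158 to -150 and -15 to -7, and PSMB8 at -65 to -57. The 250 bases before each start are shown for this pair, since they exchange places in the core and moved in opposite directions. RefSeq gives each of these genes a second start, at which none of the searched motifs was found, and the run shown is from the start with matches. Capitals mark the GAS match and, at the end of the PSMB8 run, the first 4 letters of its ISRE match, which crosses the transcript start.
PSMB8 (chr6:32844048-32844297, minus strand): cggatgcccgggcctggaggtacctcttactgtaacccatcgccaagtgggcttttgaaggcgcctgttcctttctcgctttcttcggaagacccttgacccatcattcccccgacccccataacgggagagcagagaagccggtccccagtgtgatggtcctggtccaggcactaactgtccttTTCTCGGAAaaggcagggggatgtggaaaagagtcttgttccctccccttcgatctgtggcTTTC
PSMB5 (chr14:23034901-23035150, minus strand): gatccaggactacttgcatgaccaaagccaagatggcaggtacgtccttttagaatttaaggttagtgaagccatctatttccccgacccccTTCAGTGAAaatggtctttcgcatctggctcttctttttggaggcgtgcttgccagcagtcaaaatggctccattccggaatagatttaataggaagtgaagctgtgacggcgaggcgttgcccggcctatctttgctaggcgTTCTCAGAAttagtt

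The antioxidant response element, through which NFE2L1 is known to raise proteasome genes, was searched as TGACNNNGC and found in 3 inducible genes and 11 of the 35 other members, against 16.1% of all genes. The loose NF-kB pattern, GGG, any 5 bases and CC on either strand, was in 2 inducible genes and 27 other members, against 61.7% of all genes. Across the array, 89 of 599 measured genes with an ISRE match rose (14.9%), where 5.82% of the 14425 measured genes with a promoter window did. Without the 46 proteasome genes, 86 of 592 rose (14.5%). Of the 599, 4.84% fell, against 7.34% of the 14425. With the GAS, antioxidant response element and NF-kB letters 7.44%, 7.18% and 6.43% rose. Of the 24 measured genes outside the proteasome set that hold the 10 shared letters, 8 rose: IL12A, MYD88, OTUD4, PARP14, RNF31, SHFL, TAP1 and TAP2. Of the same 24, 3 fell (12.5%, against 7.32% of measured genes with a window outside the set), namely FAM111A, GRWD1 and ZNF207, at -0.29, -0.30 and -0.23. RNF31 reads the very site counted for PSME2, so these are not separate sites.

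**Figure D5:**
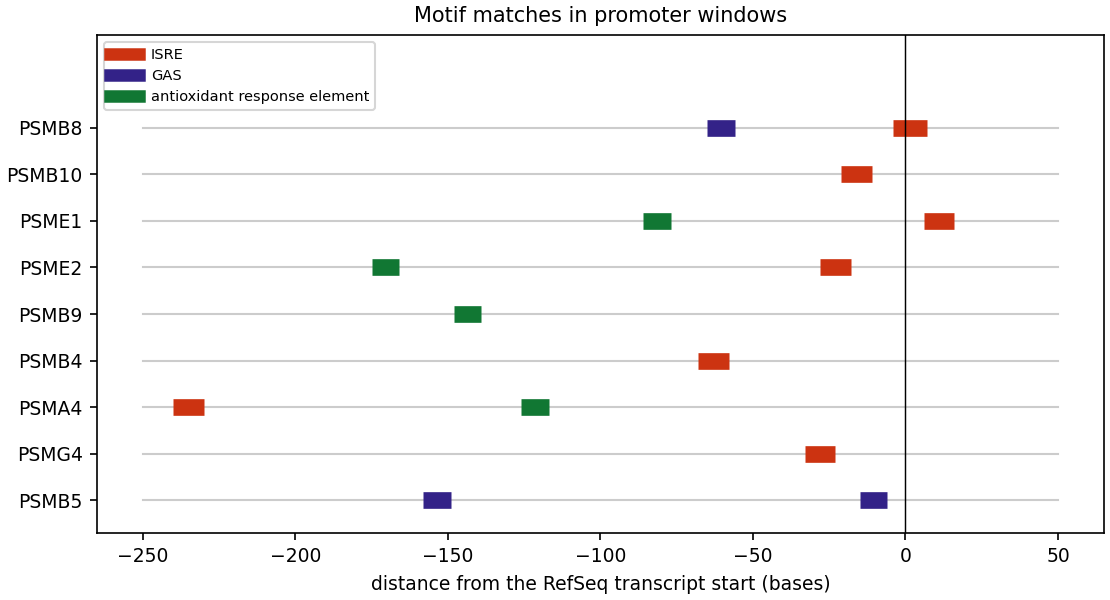
Positions of ISRE, GAS and antioxidant response element matches, in bases from the RefSeq transcript start, for the 5 inducible genes, PSMB5 and the other members with an ISRE match, over all windows of a gene. The ISRE matches of PSMB8, PSMB10, PSME1 and PSME2 lie between -28 and +15 bases from the start, and PSMB9 shows none.

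Genes that act beside the proteasome were read next. TAP1 and TAP2, which carry peptides cut by the proteasome into the endoplasmic reticulum, lie beside PSMB8 and PSMB9 in the MHC region, in the order TAP2, PSMB8, TAP1, PSMB9 among protein-coding genes. TAP1 rose by 0.74 ± 0.044 and TAP2 by 0.38 ± 0.042 (SE, limma adjusted p = 7.53e-05 and 0.00159). TAP2 was at 0.10 when scaled to the hybridization controls and no longer passed (adjusted p = 0.302). Of the 9 measured genes of the list of the peptide pathway and its regulators 7 rose and 0 fell (limma, 8 higher and 0 lower at an unadjusted p under 0.05), with a median of 0.38. Over all genes 5.77% rose and 6.83% fell. Scaled to the hybridization controls 4 of the 9 rose, where 1.28% of all genes did. This list was drawn up with earlier results of these arrays known, and is no independent evidence of its direction.

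The list also holds transcription factors known to switch on immunoproteasome genes. IRF1 was at 6.41, 6.46 and 6.42 on control and 7.20, 7.19 and 7.10 on knockdown arrays, a rise of 0.73 ± 0.042 (SE, limma adjusted p = 6.56e-05). IRF9, which binds the ISRE as part of the interferon-activated complex, rose by 1.58 ± 0.049 (adjusted p = 2.92e-06). NLRC5, the MHC class I transactivator, was at 4.85, 5.01 and 4.95 on control and 5.85, 5.89 and 5.68 on knockdown arrays, a rise of 0.87 ± 0.067 (SE, adjusted p = 0.000261). The NLRC5 probe set carries the suffix _s_at, and under the alternative settings the rise was as low as 0.31, still past the threshold. The light chain B2M rose by 0.33, a call lost when scaled to the hybridization controls (0.045, limma adjusted p = 0.649), and the peptide-loading factor TAPBP by 0.17, a call that 5 of the 6 single-array removals ended (adjusted p from 0.0597 to 0.0887; it held without knockdown replicate 1). TAPBP turned to -0.11 when scaled to the hybridization controls and was at 0.01 with its probe sets averaged. The trimming peptidases ERAP1 and ERAP2, at 0.10 and 0.17, did not pass. The control mean of ERAP2, 4.07, lay within the Tag range.

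Of 7 measured genes known to regulate the constitutive genes, MAFF passed, where 12.6% of all genes did. NFE2L1, the transcription factor that restores proteasome genes when the proteasome is inhibited, was at 8.86, 8.89 and 8.90 on control and 8.96, 8.97 and 8.96 on knockdown arrays (0.08 ± 0.035 SE, limma adjusted p = 0.194). NFE2L2 was at -0.01, DDI2, the protease that activates NFE2L1, at -0.09 and the unfoldase VCP at -0.10, with no call. The control mean of DDI2, 4.20, lay within the Tag range. MAFF, a small partner protein of these factors, rose from 4.67 ± 0.19 to 5.83 ± 0.14 (SD, n = 3 each, log2 1.16 ± 0.10 SE, limma adjusted p = 0.000542), and by 0.25 without _s_at and _x_at probe sets.

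Among 14 measured proteasome partners 2 fell and 0 rose (limma, 3 lower and 0 higher at an unadjusted p under 0.05), with a median of -0.04. Over all genes 6.83% fell and 5.77% rose, and 15.5% were lower and 11.1% higher at an unadjusted p under 0.05. UBQLN2, a shuttle that brings ubiquitinated proteins to the proteasome, was at 8.52, 8.52 and 8.60 on control and 8.25 on all 3 knockdown arrays (-0.30 ± 0.039 SE, limma adjusted p = 0.00342). TXNL1, a thioredoxin-like protein bound to the regulatory particle, fell by 0.15 (adjusted p = 0.0355), a call that ended with the removal of any single array (adjusted p from 0.0635 to 0.118). The deubiquitinase USP14 was at -0.14 without passing (adjusted p = 0.0517). POMP, the maturation factor that assembles both kinds of core particle, was at -0.05 (adjusted p = 0.432).

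Leukocytes carry the immunoproteasome at rest, so their markers were read beside the inducible genes. Of 14 measured leukocyte markers 0 rose and 0 fell (limma, 1 higher and 1 lower at an unadjusted p under 0.05), with a median log2 change of -0.06. The same shares over all genes were 5.77% and 6.83%, and 11.1% and 15.5% at an unadjusted p under 0.05. Scaled to the hybridization controls 11 of these 14 fell, where 83.2% of all genes fell, and to the poly-A controls 7, where 38.7% of all genes fell. Their mean signal was 3.93 to 3.97 on control and 3.89 to 3.99 on knockdown arrays. PTPRC, the common leukocyte antigen, had values of 2.35, 2.37 and 2.25 in the control group and 2.59, 2.34 and 2.38 in the knockdown group, around the lower end of the Tag range. CD14, CD79A, CSF1R and CD3E lay above the Tag range, at control means of 6.25, 5.59, 4.72 and 4.64. Their log2 changes were -0.06, 0.05, -0.12 and -0.07, and none passed. The epithelial and A549 markers, 9 measured, had a mean signal of 10.55 to 10.63 over the 6 arrays. Of these KRT19 rose by 0.29 and KRT8 fell by 0.15 (limma adjusted p = 0.00409 and 0.0474). Scaled to the hybridization controls KRT19 was at 0.012 (adjusted p = 0.905). The KRT8 call ended with the removal of any single array (adjusted p from 0.0816 to 0.146).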

How the data were processed

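Log2 signals of 49372 probe sets on 6 arrays (3 control, 3 knockdown) were used as deposited. Per the submitters' processing notes the authors made the deposited log2 values with RMA, a method that in its usual form corrects background, equalises the arrays' distributions and combines probes into probe sets. The sources used here name no software, version or settings for it. Such equalising hides shifts common to all genes, and low signals are compressed. The series' design text speaks of RNA sequencing, but the table holds array values.

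Of the probe sets, 44994 had 1 gene symbol in the platform annotation and 1832 had several. Symbols were updated by gene identifier for 44967. The probe set with the highest mean over the 6 arrays stood for a gene (18132 genes). Of the proteasome symbols, 2 probe sets with several symbols were not used. The knockdown and control groups were fitted in R 4.3.3 by limma 3.58.1 (lmFit, eBayes, no covariate, 2-sided, Benjamini-Hochberg over all genes, threshold 0.05); probe sets were fitted the same way over all 49372. Ratios within an array were tested by exact permutation. The script was tested on simulated data. The number of arrays limits the precision.

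The members, gene lists and motifs were chosen with earlier results of these data known. Named were the 5 inducible genes, their 3 constitutive partners, every member past the threshold and the largest changes in each direction. Members whose probe sets disagreed in calls were named too. PSMG4, PSMA4, PSMB4, PSMD12, PSME3 and the genes named beside motifs were added after their values were seen. So were the single probe sets of PSMA1, PSMB2, PSMC2, PSMD2, PSMD3 and PSMF1, and the leukocyte markers CD14, CD79A, CSF1R and CD3E. Alternatives covered probe set choice, a signal filter (mean of at least 5), scaling, moderation, the replicate number as a block and leaving out each array. Same-numbered arrays did not deviate together (correlations of 0.092, 0.058 and -0.01), and no pairing was assumed. Promoter sequences and gene order are from RefSeq (GRCh38.p14). Figures were drawn with matplotlib 3.10.9.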

Additional observations from a re-analysis of the deposited data

Results flagged for a closer look

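Control probe sets outside the comparisons differed between the groups. The 18 bacterial hybridization control probe sets averaged 9.22 ± 0.11 in the control group and 9.50 ± 0.045 in the knockdown group (SD, n = 3 each), 0.28 higher, with all knockdown arrays above all control arrays. The 27 poly-A control probe sets averaged 5.36 ± 0.047 and 5.48 ± 0.0059, 0.13 higher, again without overlap. The 17 Tag probe sets differed by 0.01. The part of these differences in the changes of the proteasome genes was not tested beyond the scaled values.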

How the results depend on the processing

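Over all genes 2285 passed. The number was 493 without _s_at, _x_at and _a_at probe sets, 1314 without variance moderation, 3502 with an intensity trend and robust moderation, 15317 when scaled to hybridization controls (232 higher, 15085 lower) and 7533 when scaled to poly-A controls (522 higher, 7011 lower). The 493 were of 8356 genes measured. With a mean signal of at least 5 the number was 3192 of 10514 genes, after cyclic loess 2187 of 18132 and with the replicate number as a block 1565 of 18132. Leaving out 1 array gave 1104 to 1575. Of the proteasome genes 10 passed, against 2 of 13 measured without _s_at, _x_at and _a_at probe sets, 17 with a mean signal of at least 5, 6 after cyclic loess, 44 and 37 under the hybridization and poly-A scalings, 21 with a trend and robust moderation, 5 with the replicate number as a block (replicate block; 4 rises and 1 fall) and 4 to 5 without 1 array. The replicate block ended no call of PSMB8, PSMB9, PSME1 or PSME2.

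Without _s_at, _x_at and _a_at probe sets PSMB8 and PSMB9 were read from their near-background probe sets, at 0.10 and 0.02. They were the only inducible genes measured under that setting, and their mean change stood 0.13 above that of the other members. With averaged probe sets the mean change of the 5 inducible genes stood 0.39 above that of the other members. Scaled to the hybridization controls PSME1 was at 0.082, PSME2 at 0.012, PSMB10 at -0.25, PSMA2 at -0.25, PSMA5 at -0.22, PSME4 at -0.20, PSMG4 at -0.26 and TAPBP at -0.11. Scaled to the poly-A controls PSMB10 was at -0.10, PSMA2 at -0.093, PSMA5 at -0.063, PSME4 at -0.043 and PSMG4 at -0.11. Both scalings lower every gene by construction. After cyclic loess PSMA1 was at 0.016, PSMA3 at 0.023, PSMC4 at 0.023, PSMD8 at 0.0092 and PSMG3 at 0.018. Averaged probe sets gave 0.0067 for PSMA3, 0.0022 for PSMD8 and -0.023 for PSMG4, and PSMA3 was at 0.023 without _s_at and _x_at probe sets, a setting chosen after seeing the data. Leaving out 1 array gave -0.022 to 0.0083 for PSMG3 and -0.032 to 0.063 for PSMG4. For the other changed values the cause was not tested. The 3 ratios of exchanged subunits kept their direction with averaged probe sets, after cyclic loess, without _s_at and _x_at probe sets and without any single array. Scaling, moderation, the replicate block and the signal filter cannot move such a ratio. None of the 3 could be formed without _s_at, _x_at and _a_at probe sets. Signals near background limit PSMA8, PSMB11, DDI2, ERAP2 and LINC00525. The same holds for PTPRC and the other leukocyte markers, apart from CD14, CD79A, CSF1R and CD3E.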
